A study of Sus scrofa with 36 samples.

Results

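Macrophages that take up modified lipoproteins use a small set of receptors and lysosomal proteins, and 5 genes of that set were followed here in pig fat: MSR1, OLR1, CD68, LYZ and NCEH1. They were chosen by name, for their known roles in scavenging and lipid handling and with earlier results of these data known, and are 5 of the 12253 genes measured. The study's supplementary gene table puts all 5 in its Blue co-expression module, which was built from these pigs and retained for its correlation with obesity traits, so the group differences below are not independent of that choice. On the Sscrofa10.2 assembly MSR1 (ENSSSCG00000006979) lies at chr17:4110396-4191497 and OLR1 (ENSSSCG00000000647) at chr5:64579163-64590512. CD68 (ENSSSCG00000017956) lies at chr12:55296985-55299524, LYZ (ENSSSCG00000000492) at chr5:36179190-36185575 and NCEH1 (ENSSSCG00000011755) at chr13:120035744-120052855. OLR1 and LYZ share chromosome 5 and the other 3 genes lie on separate chromosomes.

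RNA-Seq was run on subcutaneous fat of 36 pigs from an F2 cross of Duroc and Göttingen Minipig, which segregates for fatness. The pigs were picked for a low, mean or high genetic obesity index and are called lean (12 pigs, 7 males and 5 females), intermediate (12 pigs, 6 males and 6 females) and obese (12 pigs, 6 males and 6 females). The labels name no drug or transgene, and the sampled tissue is the same in all groups. All pigs were slaughtered near a common weight, so the lean pigs were older, and age and obesity group cannot be told apart in these data. Full sibs were allowed within a group and are not marked, so p-values treat related pigs as independent.

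Scavenger receptors are surface proteins that bind oxidized or acetylated lipoproteins and are not shut down when the cell fills with cholesterol. The cargo is broken down in lysosomes, free cholesterol is re-esterified and stored in droplets, and neutral hydrolases release it again for export. In fat tissue, macrophages with these genes are known to collect around dying adipocytes and to take up the lipid that is left.

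Between 8735839 and 11755925 reads per pig (median 10496910) were counted over the 12253 genes, with group medians of 10159187 (lean), 10239823 (intermediate) and 10672358 (obese). Values are given below as normalized counts, which are reads divided by the pig's size factor (0.796 to 1.18), and as differences of log2 values. At the mean read number of the lean group, counting error alone was 4.98% of the value for CD68 and 11.1% for NCEH1, which is far below the spread between pigs. Of 9 adipocyte markers CIDEC, LIPE, PLIN1, PNPLA2 and PPARG were measured, with a summed normalized count of 27887 to 84348, and ADIPOQ, LEP, FABP4 and DGAT2 were not matched in the table. The 6 skeletal muscle markers were not matched either, which says nothing of their level. The macrophage list had 15 of 17 markers measured, and its summed normalized count ran from 4056 to 20558 among lean pigs, 5897 to 19664 among intermediate pigs and 8787 to 24274 among obese pigs. In whole tissue, a change in the number of macrophages and a change in RNA per macrophage cannot be told apart.

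MSR1 encodes the class A macrophage scavenger receptor, which binds acetylated and oxidized LDL. Its normalized count was 30.8 at the lowest, 100 at the median and 639.5 at the highest in lean pigs. The intermediate pigs had 40.3, 429 and 926, and the obese pigs 178, 349 and 752. The low end differed most, as 7 of 12 lean pigs lay below the lowest obese pig while only 2 obese pigs lay above the highest lean pig. The medians differed 3.49-fold between obese and lean pigs and the means 1.94-fold (420 ± 206 against 216 ± 231, SD, n = 12 each). On the log2 scale the obese pigs were higher by 1.55 (SE 0.49, limma p = 0.00291), which did not pass Benjamini-Hochberg adjustment over all genes (adjusted p = 0.114).

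OLR1 encodes LOX-1, a C-type lectin-like receptor for oxidized LDL that is made by endothelial cells as well as macrophages. The lean pigs had 19.3, 67.0 and 349 normalized counts at the lowest, the median and the highest, the intermediate pigs 29.7, 203 and 492, and the obese pigs 62.6, 146 and 555. The groups overlapped: 6 lean pigs lay below the lowest obese pig, and 4 obese pigs lay above the highest lean pig. Obese minus lean, the log2 difference was 1.16 (SE 0.45, limma p = 0.0149, adjusted p = 0.209), and the ratio of the medians was 2.18.

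CD68 encodes a heavily glycosylated protein of the late endosome and lysosome that is the usual histological marker of tissue macrophages. Normalized counts were 187, 301 and 879 at the lowest, the median and the highest in lean pigs, 276, 648 and 1006 in intermediate pigs, and 311, 567 and 996 in obese pigs. Every obese pig exceeded the lean median, and 2 lean pigs lay above the obese median. The obese pigs were higher by 0.74 on the log2 scale (SE 0.26, limma p = 0.00662, adjusted p = 0.152).

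LYZ encodes lysozyme, the bacterial cell wall hydrolase that macrophages and neutrophils store and secrete. It had the largest span of the 5 genes within the lean group, from 28.4 over a median of 182 to 1122 normalized counts, a ratio of 39.5 between the highest and the lowest pig. The intermediate pigs had 91.2, 526 and 1574, and the obese pigs 237, 458 and 1400. Obese minus lean, it also had the largest log2 difference of the 5 (1.72, SE 0.52, limma p = 0.00203, adjusted p = 0.106), with 7 lean pigs below every obese pig.

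NCEH1 encodes neutral cholesterol ester hydrolase, which frees cholesterol from the esters stored in macrophage droplets. Its normalized counts were 41.7, 64.9 and 168 in lean pigs (lowest, median, highest), 59.9, 103 and 171 in intermediate pigs, and 80.8, 106 and 167 in obese pigs. No obese pig exceeded the highest lean pig, yet 8 of 12 lean pigs lay below the lowest obese pig. The log2 difference was 0.60 (SE 0.21, limma p = 0.00734, adjusted p = 0.158), the smallest of the 5 genes.

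**Figure D1:**
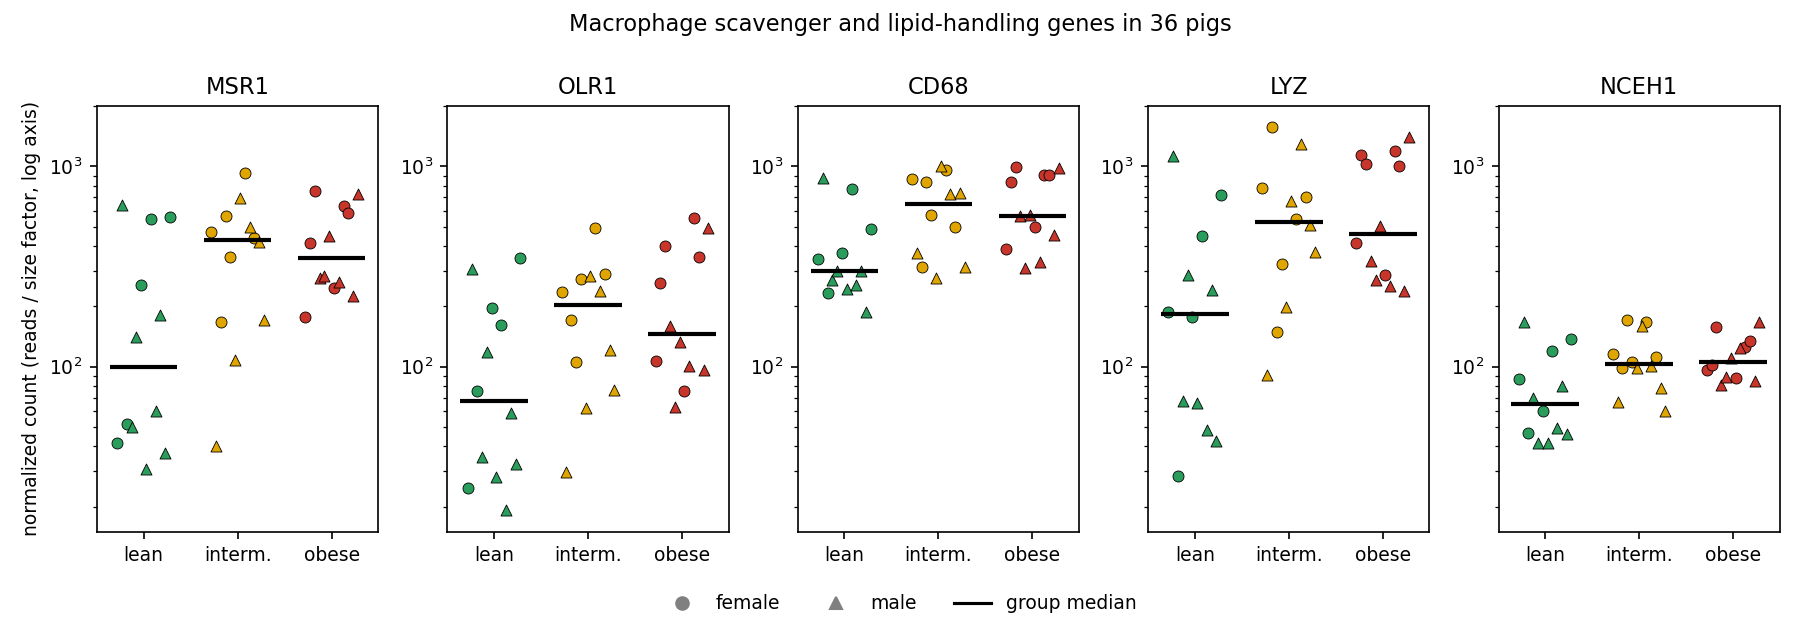
Normalized count (reads divided by size factor, log axis) of each gene in each of the 36 pigs by obesity group. Circles are females, triangles males and bars group medians. In the lean group the pigs spread down to 30.8 for MSR1 and 28.4 for LYZ, while the obese pigs start at 178 and 237.

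The pattern was therefore alike in direction for all 5 genes, with none past the adjusted threshold. In the obese against lean comparison 0 of 5 were called by limma at an adjusted p of 0.05, where 5 of 12253 genes (0.0408%) were called, all lower in the obese pigs. All 5 had an unadjusted p under 0.05 with the higher level in obese pigs, and 835 genes (6.81%) did in that direction over the whole table. As the genes come from a module retained for its correlation with obesity traits in these pigs, nothing is read from that contrast of shares, and the p-values of the 5 genes describe a known pattern. The median of the 5 log2 differences was 1.16, and the median over all genes was -0.01. Group labels were also permuted within sex 100000 times, in the lean and obese pigs alone and without the intermediate pigs. The 2-sided permutation p-values, not adjusted, were 0.00814 for MSR1, 0.0353 for OLR1, 0.0124 for CD68, 0.00726 for LYZ and 0.0182 for NCEH1.

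A single lean pig decided the adjusted call of 4 genes. Lean pig 2, a male, ranked from 30 to 35 of 36 (rank 1 being the lowest) in all 5 genes. Without this pig the log2 difference was 1.80 for MSR1 (limma adjusted p = 0.0292), 0.88 for CD68 (0.0381), 2.00 for LYZ (0.0207) and 0.73 for NCEH1 (0.0312), each past the threshold, as were 292 genes in all. OLR1 stayed at an adjusted p of 0.0741 or more whichever pig was left out. The label of lean pig 2 gives no reason to remove it, and it stays in all other values.

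The intermediate pigs lay near the obese pigs. Against the lean pigs they were higher by 1.26 for MSR1, 0.96 for OLR1, 0.66 for CD68, 1.45 for LYZ and 0.53 for NCEH1 on the log2 scale. None of the 5 was called (limma adjusted p from 0.270 to 0.382), and over all genes limma called 0 (0%), with 1535 genes at an unadjusted p under 0.05. Obese and intermediate pigs differed by 0.29 for MSR1 (95% confidence interval -0.69 to 1.28), 0.20 for OLR1 (-0.71 to 1.12), 0.08 for CD68 (-0.44 to 0.59), 0.27 for LYZ (-0.77 to 1.31) and 0.06 for NCEH1 (-0.36 to 0.49). Here too none of the 5 and 0 of all genes (0%) were called by limma, with 524 genes at an unadjusted p under 0.05, and the intervals for MSR1, OLR1 and LYZ reach beyond 1 on the log2 scale. The median normalized count of MSR1, OLR1, CD68 and LYZ was higher in the intermediate than in the obese group.

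A straight trend over the groups gave log2 steps per group of 0.78 for MSR1, 0.58 for OLR1, 0.37 for CD68, 0.86 for LYZ and 0.30 for NCEH1. None of the 5 was called (limma adjusted p from 0.108 to 0.206) and 3 genes were called in all (0.0245%). All 5 had an unadjusted p under 0.05 for a level higher with obesity group, as did 6.75% of all genes, and for the same reason nothing is read from the contrast of these shares.

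**Figure D2:**
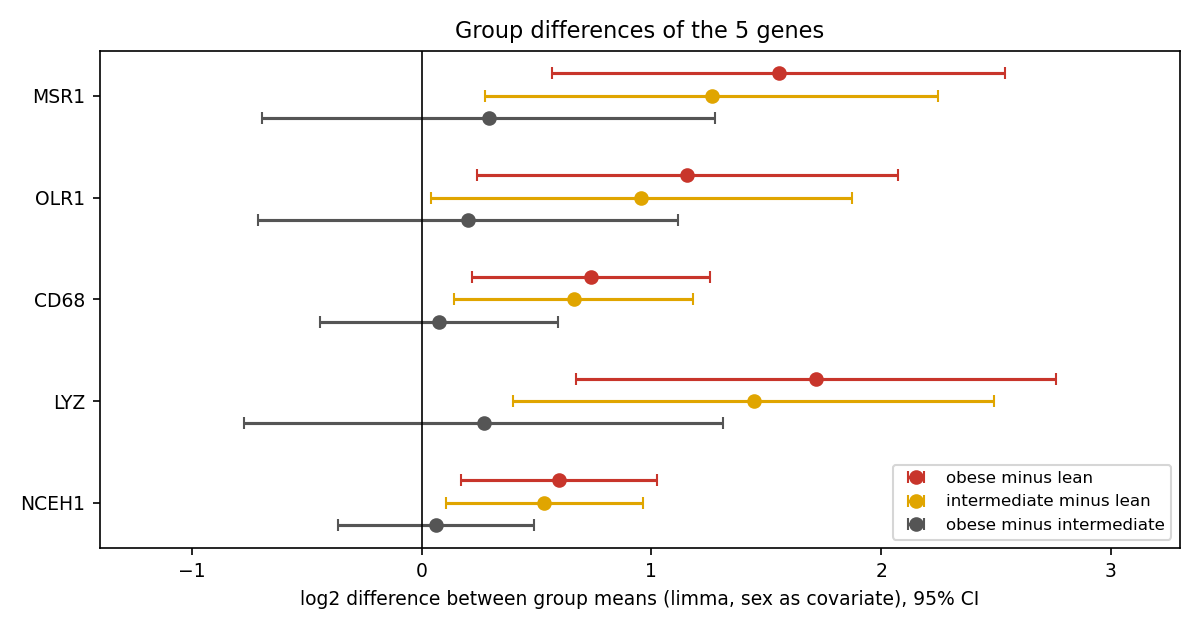
Log2 difference between group means for each gene (points) with the 95% confidence interval (bars), from limma with sex as a covariate. The intervals against lean pigs lie above 0 for all 5 genes, and those between obese and intermediate pigs include 0.

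Males had lower mean values than females in all 5 genes, by most for OLR1. Within the lean pigs the median OLR1 normalized count was 35.3 in 7 males and 162 in 5 females, within the intermediate pigs 98.8 and 255, and within the obese pigs 116 and 308. Over all groups the male minus female difference was -1.03 on the log2 scale for OLR1 (SE 0.37, limma p = 0.0084, adjusted p = 0.122). It was -0.74 for MSR1, -0.43 for CD68, -0.67 for LYZ and -0.35 for NCEH1. None of the 5 was called for sex, where 268 genes (2.19%) were.

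The obese minus lean difference was not found to depend on sex for any of the 5 genes. The sex difference of that contrast ranged from -0.24 for LYZ to 0.72 for MSR1 on the log2 scale (limma adjusted p from 0.738 to 0.985), and 1 gene was called in all (0.00816%). The interval for MSR1 ran from -1.30 to 2.75, so a difference between the sexes as large as the obese minus lean difference itself lies within it.

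Seen pig by pig, the 5 genes largely marked the same animals. Lean pigs 4, 7, 9 and 11, all males, were below the lowest obese pig in all 5 genes, and 8 of 12 lean pigs were so in 3 or more. Within the lowest 18 ranks for all 5 genes were 8 lean, 1 intermediate and 1 obese pig. Within the highest 18 ranks for all 5 genes were 2 lean, 5 intermediate and 6 obese pigs. The lean pigs among the latter were pigs 2 and 8, and lean pig 12 missed this only by rank 18 for CD68. Obese pig 12, a male, was the most uniformly high, with ranks from 33 to 35.

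A few animals broke the common pattern. Intermediate pig 3 had the highest LYZ of all 36 pigs, a normalized count of 1574, with rank 10 for MSR1 and rank 11 for CD68. Intermediate pig 4 had the highest NCEH1 (171) and rank 7 for LYZ. Lean pig 1 had rank 2 for OLR1 and rank 4 for MSR1, the surface receptors, but ranks 13 and 14 for CD68 and NCEH1. Intermediate pig 2 had ranks 3 and 4 for the receptors, 6 for LYZ and 8 for NCEH1, and rank 15 for CD68.

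**Figure D3:**
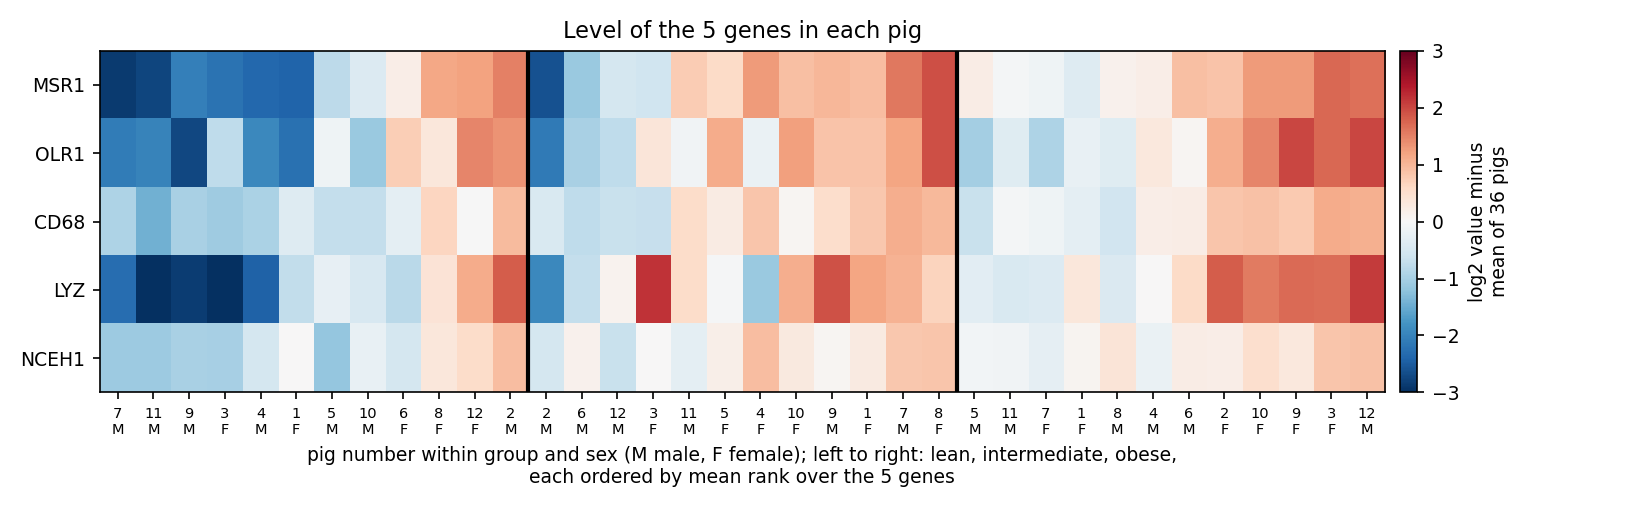
Log2 value of each gene in each pig, less the gene's mean over the 36 pigs (colour, clipped at 3 in either direction). Pigs are ordered within lean, intermediate and obese by their mean rank over the 5 genes. The 6 lean pigs at the left are blue for the receptors and LYZ, and lean pigs 8, 12 and 2 are red or pink for MSR1 and OLR1.

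On the log2 scale the genes also varied more between lean pigs than between obese pigs, by least for CD68. The SD of log2 values in lean, intermediate and obese pigs was 1.67, 1.30 and 0.73 for MSR1, 1.73, 1.21 and 1.02 for LYZ, and 1.48, 1.16 and 1.12 for OLR1. It was 0.72, 0.51 and 0.38 for NCEH1 and 0.71, 0.70 and 0.64 for CD68. For the median gene the SD was 0.33, 0.31 and 0.32. The SD of LYZ and MSR1 in lean pigs was above that of 99.8% of all genes. NCEH1 in obese pigs was above 61.9% of them. The obese minus lean difference of the SD was below that of 70.8% of all genes for CD68. For the other members it was below 96.6% to 99.9% of them. As normalized counts the SD was larger in obese than in lean pigs for OLR1 (174 against 114), LYZ (441 against 333) and CD68 (263 against 220). It was smaller for MSR1 (206 against 231) and NCEH1 (28.8 against 41.8). The difference in spread between groups was not tested.

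All pairs of the 5 genes were positively correlated across the 36 pigs. The Blue module, to which the supplementary gene table assigns all 5, was itself built from correlations in these pigs, so the coefficients are given as a description, without a p-value. The points are pigs that share the same scaling, some of them sibs, and correlations are taken after a linear sex term. Pearson's r was highest for the surface receptors MSR1 and OLR1 (0.887, Spearman's rho 0.852) and lowest for OLR1 and NCEH1 (0.685, rho 0.689). By rho the order differed, with MSR1 and CD68 highest (0.903) and LYZ and NCEH1 lowest (0.608). Without the 2 pigs farthest from the median of the gene named before the "and", r was 0.870 for MSR1 and OLR1. It was 0.701 for OLR1 and NCEH1, and the lowest was then 0.598 for LYZ and NCEH1. Over all 36 pigs the MSR1 and CD68 pair had r = 0.859 and the LYZ and NCEH1 pair 0.696.

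Within groups r varied by pair, and no difference between groups was tested. MSR1 and OLR1 had r = 0.901 among lean, 0.842 among intermediate and 0.876 among obese pigs (12 each). CD68 and LYZ had 0.884 in lean and 0.909 in obese pigs but 0.185 in intermediate pigs. LYZ and NCEH1 had 0.832 in lean and 0.712 in obese pigs but 0.0253 in intermediate pigs. OLR1 and LYZ had 0.778, 0.697 and 0.911 in lean, intermediate and obese pigs, and OLR1 and CD68, a pair without LYZ, had 0.712, 0.619 and 0.910. The intermediate group holds pigs 3 and 4, in which LYZ parted from the other genes as given above. In 19 males LYZ had r = 0.944 with MSR1 and 0.949 with OLR1, and in 17 females 0.604 and 0.641. Intermediate pigs 3 and 4 are both females, so the lower values in females include them. The difference between the sexes was not tested.

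**Figure D4:**
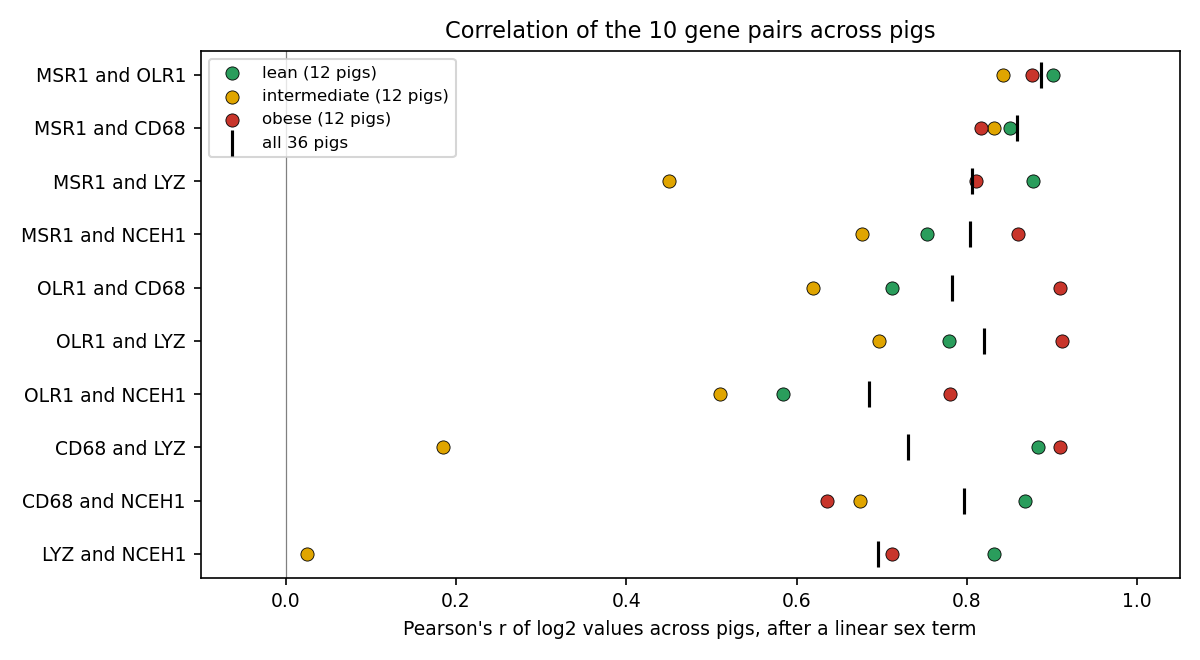
Pearson's r of log2 values for each of the 10 gene pairs after a linear sex term, within lean, intermediate and obese pigs (points, 12 pigs each) and over all 36 pigs (vertical marks). The receptor pair stays between 0.842 and 0.901, and CD68 with LYZ and LYZ with NCEH1 drop to 0.185 and 0.0253 in the intermediate pigs.

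For each member, the 5 genes with the most similar pattern across the 36 pigs were taken by the same r among the 8425 genes with a symbol. MSR1 was closest to LCP1, a leukocyte actin-bundling protein (r = 0.963), then CSF3R (0.943), the receptor of granulocyte colony-stimulating factor, CCR1 (0.937), GMFG (0.932) and CTSS (0.930). OLR1 was closest to CTSS, the lysosomal cysteine protease cathepsin S (0.905), and MSR1 was its next gene (0.887), ahead of GIMAP6 (0.873), MPEG1 (0.871) and LPXN (0.869). CD68 was closest to LAPTM5 (0.945), SPI1 (0.944), which encodes the myeloid transcription factor PU.1, EVI2B (0.940), FCER1G (0.939) and CTSB (0.936).

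LYZ and NCEH1 had nearest genes with lower coefficients. LYZ was closest to CSF3R (0.844), GMFG (0.830), LCP1 (0.828), CD48 (0.827) and PADI2 (0.823). NCEH1 was closest to GMFG (0.872), EVI2A (0.853), BTK (0.842), SPI1 (0.841) and EVI2B (0.839). GMFG, a glia maturation factor family protein of leukocytes, is thus among the 5 nearest genes of MSR1, LYZ and NCEH1. No member other than MSR1 was among the 5 nearest genes of another.

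The macrophage markers moved with the 5 genes. The list (AIF1, CSF1R, CD14, C1QA and 11 others, none of them a member) had 13 of 15 measured genes at an unadjusted p under 0.05 with higher values in obese pigs, and 0 lower, with a median log2 difference of 0.82 and 0 called by limma after adjustment. Over all genes 6.81% were higher at that p, and since the study puts some of these markers, such as SPI1 and CSF1R, in the same Blue module, nothing is read from that contrast of shares either. MS4A7 (1.50), CYBB (1.33) and ADGRE1 (1.06) had the largest differences, and MRC1 (0.52, limma p = 0.0581) was among those that missed the unadjusted threshold. CD68 had r = 0.916 with the mean log2 value of the list, NCEH1 0.831, MSR1 0.816, LYZ 0.735 and OLR1 0.681 across 36 pigs. For LYZ that correlation was 0.824 among lean, 0.187 among intermediate and 0.812 among obese pigs.

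Levels were also taken relative to the mean log2 value of the macrophage markers in the same pig. The MSR1 level relative to that mean ran from -3.40 to 0.25 in lean pigs (median -1.33, log2) and from -1.56 to -0.10 in obese pigs (median -0.58). LYZ ran from -3.01 to 0.63 in lean (median -1.04) and from -1.26 to 0.85 in obese pigs (median -0.40). The groups overlapped in both. The obese minus lean difference of the relative level was 0.68 for MSR1 (limma p = 0.0441, adjusted p = 0.0495) and 0.84 for LYZ (p = 0.028, adjusted p = 0.0326). It was 0.28 for OLR1, -0.14 for CD68 and -0.28 for NCEH1 (adjusted p from 0.232 to 0.492).

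Nearly all genes were called on that scale. Subtracting a marker mean that was itself higher in obese pigs shifted the median gene to -0.89, so 10937 genes (89.3%) were called, and the adjusted p is nearly the raw one. With the macrophage mean as a covariate instead, the differences were 0.23 for MSR1 and 0.52 for LYZ, neither called, NCEH1 changed sign to 0.014, and limma called 0 of all genes. The part of macrophage content in the differences of the 5 genes was not tested beyond these fits.

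Of the granulocyte list 3 of 8 genes were measured, with CSF3R at 1.67 (limma p = 0.00198), S100A8 at 0.47 and ELANE at -0.26 on the log2 scale, and summed normalized counts of 57.9 to 424 among lean, 99.7 to 403 among intermediate and 112 to 486 among obese pigs. Their part in the LYZ values was not tested. T and NK cell markers had 4 of 10 measured, all with a higher mean log2 value in obese pigs and a median difference of 0.71. NKG7 (0.84) had an unadjusted p under 0.05, and CD8A (0.81), CD2 (0.61) and LCK (0.48) did not, with summed counts of 134 to 382 in lean and 153 to 1724 in obese pigs. CD22, the only measured B cell marker of 6, differed by 0.85 (limma p = 0.00466). The part of these cells in the values of the 5 genes was not tested. The endothelial list had 4 of 7 measured, with a median of -0.31 and 2 genes lower at an unadjusted p under 0.05 (TIE1 at -0.51 and PECAM1 at -0.28), as were 7.88% of all genes. The part of endothelial cells in the OLR1 values was not tested.

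Adipocyte markers had a median of 0.10 in 5 of 9 measured genes, with CIDEC, a lipid droplet protein, at 0.54 (limma p = 0.00199, adjusted p = 0.106). Of the fibroblast list 4 of 6 were measured with a median of 0.26, none at an unadjusted p under 0.05. KRT10, the only skin marker of 4, was at -0.26. The red cell markers HBB and ALAS2, 2 of 4, had a median of 0.81, about that of the macrophage markers, with 0.88 and 0.74, neither at an unadjusted p under 0.05.

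The other measured scavenger and lipid uptake receptors had smaller log2 differences than MSR1 and OLR1, a contrast that was not tested. MSR1 and OLR1 come from a module retained for its correlation with obesity traits in these pigs. Nothing is therefore read from their larger differences, nor from those of NCEH1 and CD68 against the lists below. Of a list of 24, 13 were measured, with a median log2 difference of 0.13 (obese minus lean) and none called. STAB1, a scavenger receptor of macrophages and sinusoidal endothelium, was the only gene higher at an unadjusted p under 0.05 (0.55, limma p = 0.0122). SCARF2 (-0.41, p = 0.00413) and FABP5 (-0.24, p = 0.0422) were lower. Over all genes 6.81% were higher and 7.88% lower at that p, so the 1 higher gene of 13 is near the background. SCARA5, of the same class as MSR1, had 0.74 but with an SE of 0.56 (p = 0.195). SCARB1, the HDL receptor, had -0.16. CD36, MARCO and CD163 were not analysed here. Of the C-type lectins related to OLR1, 2 of 10 were measured, CLECL1 at 1.09 (p = 0.000845, adjusted p = 0.0791) and CLEC12B at -0.49 (p = 0.0919).

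The measured cholesteryl ester genes around NCEH1 had smaller differences than NCEH1, none above 0.42, and the contrast with NCEH1 was not tested. Of 17 listed, 12 were measured, with a median of 0.10, none called, and 2 higher at an unadjusted p under 0.05, where 6.81% of all genes were. These were LIPA, the lysosomal acid lipase that hydrolyses incoming esters (0.42, limma p = 0.0221), and NPC1, which moves cholesterol out of the lysosome (0.41, p = 0.00242). SOAT1, the enzyme that re-esterifies cholesterol and so works against NCEH1, had normalized counts of 122 to 289 in lean pigs (median 204) and 164 to 411 in obese pigs (median 264), a log2 difference of 0.40 (p = 0.0552).

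None of ABCA1, ABCG1 and APOE, which act in cholesterol export, had an unadjusted p under 0.05 between obese and lean pigs, and the errors of the first pair are wide. ABCA1, the transporter that loads cholesterol onto apolipoprotein A-I, had median normalized counts of 104, 182 and 155 in lean, intermediate and obese pigs, and a log2 difference of 0.10 for obese against lean (SE 0.33). ABCG1 had 50.8, 55.3 and 50.5 with a difference of 0.05 (SE 0.27). APOE had medians of 37475, 39360 and 39378 and a difference of -0.13 (SE 0.15).

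Lysosomal proteins stood between the 5 genes and the median gene. Of 20 listed, 18 were measured, with a median of 0.34. Of these 11 were higher in obese pigs at an unadjusted p under 0.05, 1 was lower and none was called, and 6.81% of all genes were higher at that p. The list was chosen with earlier results known, and CTSS, CTSB and LAPTM5 are among the genes nearest to members. Nothing is therefore read from that contrast of shares. The largest differences were those of CTSS (0.93), CTSL (0.88), CTSD (0.75), LAPTM5 (0.74) and ACP5 (0.71, limma p = 0.0644), while the cathepsins CTSC (0.33) and CTSZ (0.34) lay at the median of the list. TFEB, a transcription factor of lysosomal genes, was the lower gene (-0.27, limma p = 0.0494). LAMP1 (0.05) and LAMP2 (0.14) are lysosomal membrane proteins of nearly all cells that are related to CD68. Both had smaller differences than CD68 (0.74) and no unadjusted p under 0.05, and the contrast with CD68 was not tested.

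**Figure D5:**
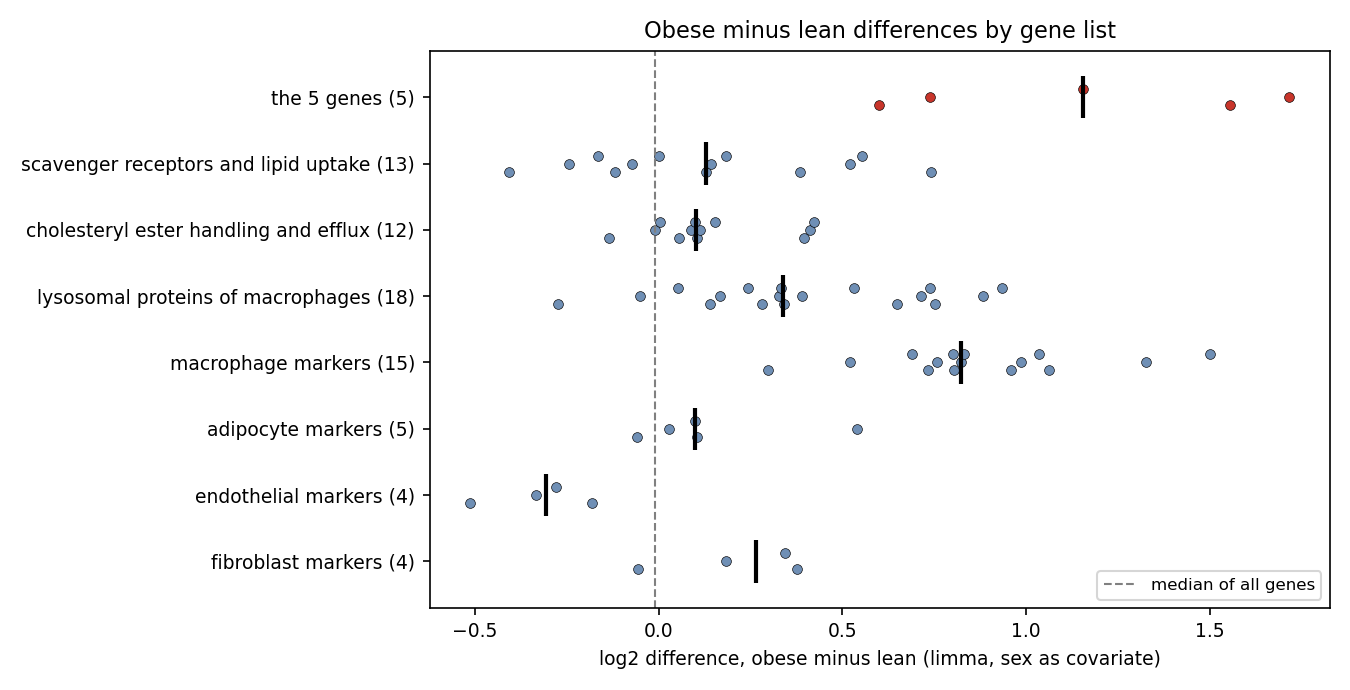
Obese minus lean log2 difference of the 5 genes and of each measured gene in 7 lists (points, number measured in brackets; small vertical offsets only separate points). Black bars are medians and the dashed line is the median of all genes. The 5 genes have a median of 1.16, the macrophage markers 0.82, lysosomal proteins 0.34 and the other scavenger receptors 0.13. As the 5 genes come from a module retained for its correlation with obesity traits, nothing is read from the contrast of medians.

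The 5 genes also differed in how tightly they were tied to the rest of the transcriptome in each group. Connectivity was the sum over genes of the absolute correlation raised to the power 9, over 8745 genes with a log2 SD above 0.25, and scaled to the highest gene of the group. In the 12 lean pigs it was 0.724 for CD68, 0.593 for NCEH1, 0.505 for MSR1, 0.434 for LYZ and 0.288 for OLR1, all above the median gene at 0.181. In the 12 obese pigs it was 0.205 for CD68, 0.0996 for NCEH1, 0.190 for MSR1, 0.214 for LYZ and 0.208 for OLR1, all below the median gene at 0.219. CD68 thus went from above 98.6% of genes in lean pigs to above 46.9% in obese pigs, and NCEH1 from 95.6% to 18.0%. The study had already named CD68 and NCEH1, from the same lean and obese pigs, as lean-network hubs with weak connections in obese pigs. The differences recomputed here, -0.519 for CD68 and -0.493 for NCEH1, fall short of the study's cut for such genes. These values have no error of their own and were not tested, nor was their relation to the spread between pigs. CD68, with the largest drop in connectivity, had a log2 SD of 0.71 in lean and 0.64 in obese pigs. OLR1, with the smallest drop, had 1.48 and 1.12.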

How the data were processed

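Subcutaneous fat RNA of 36 pigs was sequenced. Per the labels and the study's methods, the authors used STAR for alignment to Sscrofa10.2, HTSeq for gene counts, DESeq for size factors and limma for the transformation. The deposited values equal the log2 of the ratio (reads + 0.5) / (size factor + 1), plus a constant. This removes only part of the depth difference between pigs, and log2 differences, correlations and connectivity rest on it. Over the 36 pigs the 5 genes had r of 0.121 (LYZ) to 0.303 (NCEH1) with the size factor, and division by the whole size factor was an added alternative. From the deposited log2 values whole reads came back for 99.9% of the values in the pig with the fewest (within 0.1 reads). The study's methods name a sex correction. It is not visible in the values, so sex was a covariate here. A normalized count is the recovered read number over the pig's size factor.

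The log2 values were fitted with limma 3.58.1 (R 4.3.3, intensity trend) on group and sex over all 36 pigs and 12253 genes, with Benjamini-Hochberg adjustment over all genes and a threshold of 0.05. Of the genes, 8425 had a symbol. The named genes are the 5 members, the 5 genes most correlated with each, and the genes of lists chosen by function. Members and lists were chosen with earlier results of these data known. Pigs were grouped by the labels alone. The sequencing lane of each pig was not used. The fit was tested on simulated data. Alternatives were other scalings, offsets, filters, covariates and pigs left out. No gene sequence or gene length of this assembly was used, so levels are not compared between genes.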

Additional observations from a re-analysis of the deposited data

How the results depend on the processing

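All 5 genes kept a higher level in obese than in lean pigs in every fit of that comparison. Over 10 alternatives of model, scaling, offset, filter and sex, none passed the adjusted threshold, with log2 differences of 1.17 to 1.90 for MSR1, 0.95 to 1.34 for OLR1, 0.72 to 0.77 for CD68, 1.60 to 1.84 for LYZ and 0.40 to 0.77 for NCEH1. The permutation within sex, which is not adjusted and used the lean and obese pigs alone, had differences of 1.56 (MSR1), 1.16 (OLR1), 0.73 (CD68), 1.71 (LYZ) and 0.61 (NCEH1). Leaving out each pig gave 1.37 to 1.80 for MSR1, 0.95 to 1.38 for OLR1, 0.64 to 0.88 for CD68, 1.43 to 2.00 for LYZ and 0.52 to 0.73 for NCEH1, and the adjusted calls appeared only without lean pig 2. Relative to macrophage markers, the covariate fit gave 0.23 for MSR1, 0.52 for LYZ, a reversed 0.014 for NCEH1 and 0 genes called.

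The number of genes called between obese and lean pigs was unstable. It was 5 as reported, 3 with no sex term, 12 with no intensity trend, 1 without the lowest 25% of genes, 9 with each pig's median subtracted, 9 with the whole size factor (added after seeing the data), 17 with lean and obese pigs only, 9 with an offset of 5 reads, 2 in males and 21 in females. Without single pigs it ran from 1 to 292. It was 292 without lean pig 2, 204 without lean pig 8, 43 without lean pig 10, 27 without obese pig 8, 22 without lean pig 12, 20 without intermediate pig 6, 14 without lean pig 4, 12 without lean pig 1 or intermediate pig 2, 10 without intermediate pig 3 and 8 without intermediate pig 10. It was 1 to 3 without lean pigs 3, 5, 6, 7, 9 or 11, intermediate pig 9, or any obese pig other than 5 and 8. The trend called 5 genes with no intensity trend and 6 with medians subtracted. The sex difference called 2 with no intensity trend, and 0 with medians subtracted or the whole size factor. The cause was not tested. Depth limits NCEH1 and OLR1 most, which had the fewest reads. No paired analysis was possible because the labels number the pigs through, with no number shared between groups.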
